A study of Mus musculus with 7 samples.

Results

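The genes described here are the nuclear genes of oxidative phosphorylation: every gene in the deposited matrices whose symbol starts with Nduf, Uqcr, Sdh, Atp5, Cox4i, Cox5, Cox6, Cox7 or Cox8. There were 96 of them among 27998 genes, and all 96 were found in the GENCODE M21 annotation of the mouse genome (GRCm38, the assembly that mm10 names). Complex I, the entry point for electrons from NADH, is represented by 36 subunits and 7 assembly factors (Ndufaf genes). Complex II, succinate dehydrogenase, has 4 subunits and 4 assembly factors (Sdhaf genes). Complex III has 8 subunits. Complex IV, cytochrome c oxidase, has 18 subunits, the subunit paralog Ndufa4l2 and the supercomplex factor Cox7a2l. Complex V, the ATP synthase, has 15 subunits and the factor Atp5s, and Atp5sl is a further gene counted here under none of the complexes.

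Complexes I to IV pass electrons from NADH and succinate to oxygen and, except for complex II, pump protons out of the mitochondrial matrix; complex V lets the protons back in and makes ATP. Complexes I, III, IV and V are built from subunits of both genomes, whereas all of complex II comes from the nucleus. Several subunits of complex IV exist as pairs of isoforms, one found in most tissues and one in heart and skeletal muscle, lung, testis or cells short of oxygen. In fat, a dense respiratory chain is best known from brown and beige adipocytes, which are not part of the cells studied here.

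The cells are the stromal vascular fraction, the cells of fat tissue other than adipocytes, of inguinal subcutaneous adipose tissue from female C57BL/6N mice. The design sets 4 young libraries (mice of 11 to 12 weeks) against 3 old libraries (mice of 18 months), with no other treatment or allele, and asks what changes with age. How many animals went into each library is not stated, so p-values measure the spread between libraries, which may be technical. Single cells were captured with the 10x Genomics 3′ v3 chemistry, which reads the 3′ end of each transcript once per unique molecular identifier (UMI), so counts need no correction for transcript length.

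The libraries held between 52336665 and 99516882 UMIs, and 37293 cells were kept after filters and removal of doublets. Pairs of libraries shared 4 to 23 cell barcodes. Cell classes were rebuilt from markers, so each name stands for cells like that type; clusters were made without the 96 genes and without mitochondrially encoded genes. Young replicate 1 stood apart from the other 6 libraries. The 96 genes took 2.26% of its UMIs against 1.33% to 1.60% in the other libraries. Its makeup differed too: luminal epithelial cells, the class with the highest share, were 11.8% of its kept cells against 1.13% to 4.36% elsewhere. Within progenitors the genes took 1.57% of its UMIs against 1.22% to 1.35%. Immediate early genes such as Fos, a list chosen after the data were seen, took 0.605% of its UMIs against 2.09% to 2.67% elsewhere. Several comparisons are therefore given with and without this library. The part of handling or RNA quality in it was not tested.

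Over all kept cells the 96 genes gave 7428935 UMIs, 1.58% of the total. The 10 most abundant were Cox4i1, Uqcrh, Cox8a, Atp5e, Cox6c, Cox7c, Atp5h, Atp5l, Cox7a2l and Atp5b, and the 10 genes with most UMIs held 30.3% of the members' UMIs. In CPM (UMI counts scaled to the depth of the library's cells of that class) averaged over the 4 largest lineages (adipose progenitors, macrophages, endothelial cells and T cells), Cox4i1, the common form of the regulatory subunit 4 of complex IV, stood at 638 CPM. It was followed by Uqcrh, the hinge protein of complex III, at 497 CPM and Cox8a at 485 CPM. At this scale 52 members exceeded 100 CPM, 31 lay between 10 and 100 CPM, and 13 lay under 10 CPM.

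The 13 low genes were the assembly factors Ndufaf1, Ndufaf5, Ndufaf6 and Sdhaf3, the ATP synthase factor Atp5s, the paralog Ndufa4l2, and complex IV isoforms known from muscle, lung or testis: Cox4i2, Cox6a2, Cox6b2, Cox7a1, Cox7b2, Cox8b and Cox8c. Cox7b2 had no UMI in any kept cell, which allows up to 0.00639 CPM, and Cox8c had 4 UMIs in all. Between the 4 main lineages most members differed little: for 73 of the 96 the highest lineage mean was under 2 times the lowest. Cox4i1 itself ran from 615 CPM ± 64.0 (SD, n = 7 libraries) in progenitors to 667 CPM ± 93.2 in macrophages.

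The core subunits that carry the redox centres and catalytic sites lay, in complexes I to III, below many small accessory subunits. In complex V the catalytic gene Atp5b was instead among the most abundant members. In complex I, Ndufs1, the largest iron-sulfur subunit, stood at 33.0 CPM in progenitors and 35.8 CPM in endothelial cells. Ndufv1, which binds NADH, stood at 63.3 and 64.5 CPM in the same classes. Both were higher in smooth muscle cells, at 71.2 CPM for Ndufs1 and 95.7 CPM for Ndufv1.

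In complex II, Sdha, the flavoprotein, stood between 44.4 CPM (neutrophils) and 132 CPM (Schwann cells), and the iron-sulfur subunit Sdhb between 32.8 CPM (erythroid cells) and 134 CPM (cycling cells). In complex III the core proteins Uqcrc1 and Uqcrc2 and the Rieske iron-sulfur protein Uqcrfs1 stood at 72.4, 69.8 and 67.1 CPM in progenitors. T cells had similar Uqcrc1 (71.3 CPM) and more Uqcrfs1 (106 CPM). These are levels per class, with no test between classes.

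The catalytic core of complex IV is mitochondrially encoded. Cox5a, a nuclear subunit that surrounds the catalytic core, was lowest of the main lineages in progenitors at 113 CPM and stood at 233 CPM in T cells, 288 CPM in macrophages and 292 CPM in endothelial cells. Cox5b varied less, from 213 CPM in progenitors to 268 CPM in endothelial cells. The catalytic β subunit gene Atp5b was at 309 CPM in progenitors, 611 CPM in pericytes and 744 CPM in smooth muscle cells, and Atp5a1 was at 259, 387 and 495 CPM in the same classes. Of the 3 genes for the same membrane ring subunit, Atp5g2 led in T cells (417 CPM against 190 CPM for Atp5g1 and 199 CPM for Atp5g3), whereas Atp5g3 led in pericytes (334 CPM against 188 CPM for Atp5g1 and 237 CPM for Atp5g2). Many of these genes have near-identical processed copies in the genome, and how reads shared between copies were counted is not given in the sources used here, so such levels carry that uncertainty.

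Among 18 cell classes with at least 20 cells in a library, the summed share of the 96 genes was highest in luminal epithelial cells, the milk-duct lining cells of the mammary gland that lies in this fat depot. Their mean share was 2.496% ± 0.471 of UMIs (SD, n = 7). Smooth muscle cells followed at 2.26% ± 0.525 (n = 4) and cycling cells at 2.03% ± 0.181 (n = 7), and these neighbours overlapped between libraries. NK cells, plasma cells, pericytes and basal epithelial cells lay at 1.85% to 1.86%.

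Of the main lineages, endothelial cells stood at 1.59% ± 0.209, T cells at 1.46% ± 0.219, macrophages at 1.38% ± 0.234 and progenitors at 1.32% ± 0.121 (n = 7 each), and the ranges of their libraries overlapped. Compared within libraries, endothelial cells lay above progenitors in all 7. Erythroid cells (0.725%, n = 2) and neutrophils (0.656% ± 0.0515, n = 3) were lowest, with no overlap with any other class. Taken singly, 26 members were highest in luminal cells, 21 in smooth muscle cells, 10 in plasma cells and 8 each in cycling and Schwann cells, and 60 were lowest in neutrophils and 28 in erythroid cells.

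**Figure D1:**
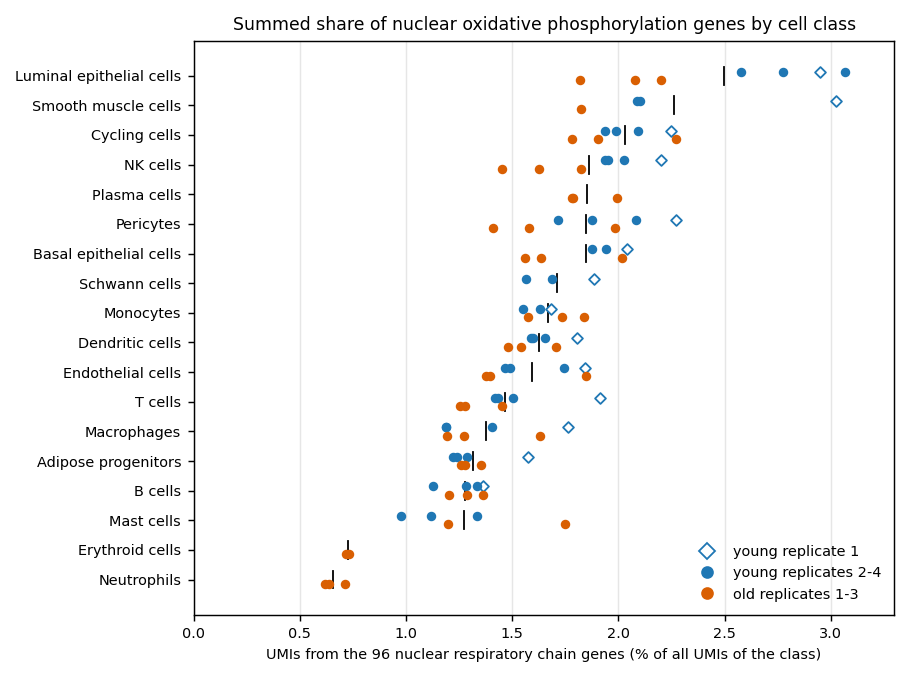
UMIs of the 96 genes as a percentage of all UMIs of a class (x axis), for 18 cell classes (y axis); each point is 1 library with at least 20 cells, young in blue with replicate 1 as an open diamond, old in orange, and the black bar is the mean. Luminal cells lie highest at a mean of 2.496%, neutrophils lowest at 0.656%, and young replicate 1 is often the rightmost young point.

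The balance between complexes varied less than the total. As a percentage of subunit UMIs over the 17 classes with at least 3 libraries, complex I ran from 26.9% in NK cells to 34.9% in Schwann cells. Complex II, the smallest, ran from 1.59% in luminal cells to 2.65% in macrophages, and complex III from 9.43% in neutrophils to 11.5% in mast cells. Complex IV ran from 25.0% in plasma cells to 31.0% in neutrophils, and complex V from 25.4% in Schwann cells to 33.0% in T cells. NK, T and B cells had a low part of complex I and a high part of complex V: 26.9%, 27.8% and 27.7% for complex I and 32.8%, 33.0% and 32.1% for complex V. Dendritic cells had similar parts, 27.5% and 32.3%, whereas plasma cells, the antibody-secreting form of B cells, had 34.5% and 28.2%.

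The 13 mitochondrially encoded genes did not follow the nuclear ones across classes. Nuclear members gave 0.585 UMIs per mitochondrially encoded UMI in cycling cells, 0.480 in progenitors, 0.418 in endothelial cells, 0.306 in pericytes and 0.210 in B cells. Progenitors had a lower nuclear share than endothelial cells but the higher ratio, and their mitochondrially encoded share was 2.81% ± 0.412 against 4.01% ± 0.990 (n = 7 each). The cell filter removed cells with more than 15% mitochondrial UMIs, which bounds this ratio.

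Isoforms separated the classes more sharply than common subunits did. Cox4i2, the isoform of subunit 4 known from lung and from low oxygen (chr2:152754173-152765037, plus strand), was concentrated in pericytes, the mural cells of small vessels. Pericyte libraries held 301, 541, 570 and 466 CPM in young replicates 1 to 4 and 312, 388 and 686 CPM in old replicates 1 to 3. Smooth muscle cells held 131 CPM ± 61.5 (n = 4), and Schwann cells were next at 21.4 CPM. Every pericyte library lay above every smooth muscle library, whose highest value was 203 CPM. Cox4i1 stood in pericytes at 663 CPM ± 96.1, above Cox4i2 in the mean.

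Ndufa4l2, the paralog of the complex IV subunit Ndufa4 and a known target of hypoxia-inducible factors (chr10:127514967-127517154, plus strand), had the same 2 leading classes. Pericytes held 803, 923, 930 and 738 CPM in young replicates 1 to 4 and 779, 642 and 1164 CPM in old replicates 1 to 3. Smooth muscle cells held 478 CPM ± 338 (n = 4), overlapping the pericytes. B cells, which should lack it, held 0.150 CPM.

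Ndufa4 (chr6:11900292-11907497, minus strand) was low in pericytes, at 92.0 CPM ± 44.0 (n = 7). It reached 272 CPM ± 60.3 in progenitors and 739 CPM ± 125 in luminal cells, and only neutrophils (62.3 CPM) had less. The highest pericyte library, 172 CPM, lay below the lowest progenitor library, 206 CPM. Smooth muscle cells kept 278 CPM ± 67.2, so only the pericytes combined high Ndufa4l2 with low Ndufa4 among the classes measured.

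Counted by cell, Ndufa4l2 was detected in 462 of 602 pericytes, 76.7% (95% exact Clopper-Pearson interval 73.2% to 80.1%), at a median of 4983 UMIs per cell. It was detected in 0.144% of 2084 B cells (0.0297% to 0.420%) at a median of 4444 UMIs, the level that free RNA could give. Cox4i2 was detected in 59.6% of pericytes (55.6% to 63.6%) and 0.192% of B cells. The intervals cover counting error only.

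**Figure D2:**
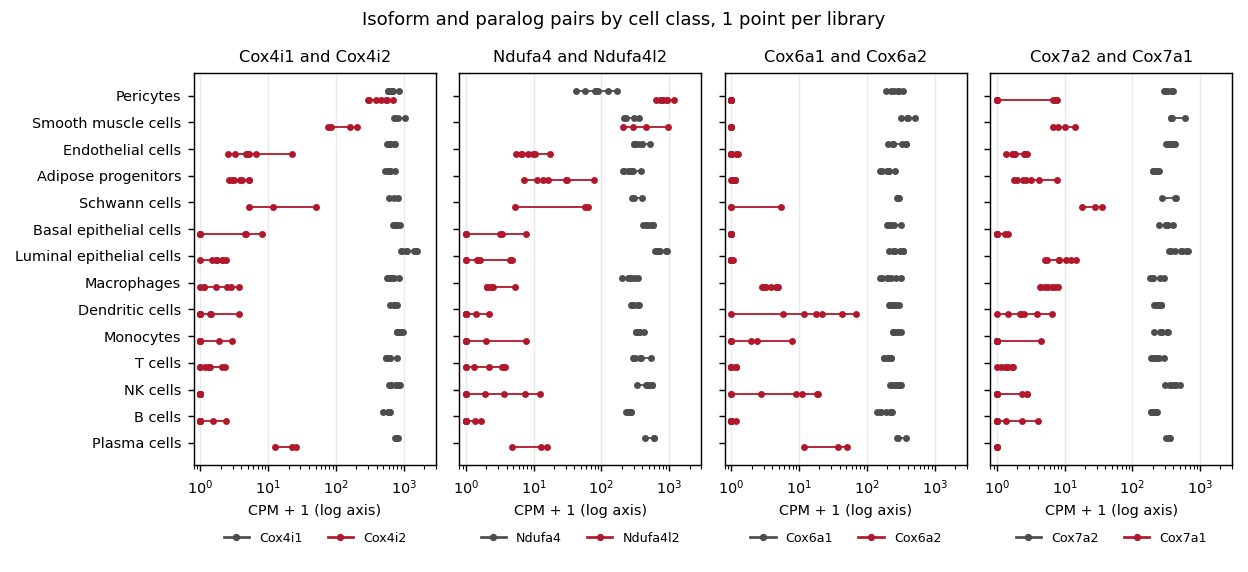
CPM plus 1 on a log axis for 4 pairs of isoforms or paralogs in 14 cell classes; each point is 1 library, the line joins the lowest and highest, grey is the common form and red the other form. Cox4i2 and Ndufa4l2 are high in pericytes and smooth muscle cells, Ndufa4 is low in pericytes, and Cox6a2 is low in all classes shown except for part of the dendritic, plasma and NK libraries.

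Cox6a2, the heart and muscle form of subunit 6a (chr7:128205435-128206387, minus strand), reached 32.2 CPM ± 19.8 in plasma cells (n = 3) and 23.4 CPM ± 24.2 in dendritic cells (n = 7) and was at 0.1 CPM or less in progenitors, endothelial cells and T cells. Within dendritic cells it was held by very few cells. At a limit chosen after the values were seen, 17 dendritic cells from 6 libraries carried at least 10 UMIs of Siglech, a marker of plasmacytoid dendritic cells, and 15 of these 17 held Cox6a2, with 220 UMIs or 1041 CPM. The other 802 dendritic cells held 6 UMIs in 5 cells, 0.525 CPM. The common form Cox6a1 was at 246 CPM in dendritic cells as a whole.

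Cox7a1, the muscle form of subunit 7a, also used as a marker of brown fat, was highest in Schwann cells at 26.1 CPM ± 8.47 (22 UMIs in 3 young libraries), against 2.4 CPM in progenitors. Its common counterpart Cox7a2 was at 379 CPM in Schwann cells. Cox8b, the other isoform linked to muscle and brown fat, did not exceed 1.55 CPM in any of the 18 classes, whereas Cox8a stood at 444 CPM in progenitors. Cox6b2, the testis form of subunit 6b, was highest in mast cells at 34.3 CPM, against 272 CPM for Cox6b1 there.

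A few accessory subunits also set one lineage apart; these were chosen after their values were seen. Endothelial cells led for Ndufa8 and Ndufc2 of complex I, at 268 CPM ± 65.0 and 343 CPM ± 53.4, and for Atp5j, the coupling factor of complex V, at 607 CPM ± 98.8. Luminal cells were next for all 3, at 151, 247 and 487 CPM. Every endothelial library exceeded every progenitor, macrophage and T cell library for Ndufa8 (lowest endothelial library 200 CPM) and for Atp5j (496 CPM).

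Plasma cells led for Ndufa1 at 574 CPM ± 48.0, where NK cells came next at 211 CPM, and for Uqcrq of complex III at 481 CPM ± 38.1, where smooth muscle cells came next at 289 CPM. Both genes were similar in the other lymphocytes, for example 155 and 158 CPM in T cells. Luminal cells led for Ndufa7 at 661 CPM ± 215, with smooth muscle cells at 329 CPM. No member reached 20 CPM in 1 class at 4 times the level of every other class; Cox4i2 came nearest, at 3.57 times the level of the next class.

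Promoter windows of the members were searched for the binding motifs of known regulators of respiratory genes. A window of 250 bases before to 50 after the start was given in RefSeq (GRCm38.p6) for 77 of the 96 genes. The palindromic motif of NRF1 (GCGCA, then any base, then GCGC) was found on either strand in 27.3% of these 77 windows, against 5.19% of all 27025 gene windows and 10.5% of the windows of genes tested in at least one main lineage. The ETS motif read by GABPA, CCGGAAG, was found in 25.97% against 9.93% and 18.1%. At least one of these motifs was found in 36 of the 77 windows, so most held neither. The YY1 motif (AAGATG directly followed by GCGG) was found in 6.49% against 0.995% and 2.10%, and the ESRRA motif TCAAGGTCA in 2.60% against 0.466% and 0.320%. ACGTG, the core of hypoxia response elements, was found in 23.4% of members, against 21.8% of all genes and 28.2% of tested genes. These are matches of letters, not measured binding.

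Windows of 250 bases upstream of the start are shown for the most abundant member of complexes I, IV and V whose NRF1 match lies wholly within them, and for Cox7a1 as a muscle-type isoform with no NRF1 or ETS match. They are Ndufa8 (chr2:36049339-36049588, minus strand), Cox6a1 (chr5:115348959-115349208, minus strand), Atp5h (chr11:115419920-115420169, minus strand) and Cox7a1 (chr7:30183921-30184170, plus strand), each 5′ to 3′ along the gene. Capitals mark NRF1 or ETS matches, the latter read here on the other strand as CTTCCGG.
Ndufa8: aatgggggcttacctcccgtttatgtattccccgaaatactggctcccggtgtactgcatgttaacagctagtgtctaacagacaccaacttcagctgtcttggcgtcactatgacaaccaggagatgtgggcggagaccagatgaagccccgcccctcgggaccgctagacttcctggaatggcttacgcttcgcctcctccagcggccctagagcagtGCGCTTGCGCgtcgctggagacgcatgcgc
Cox6a1: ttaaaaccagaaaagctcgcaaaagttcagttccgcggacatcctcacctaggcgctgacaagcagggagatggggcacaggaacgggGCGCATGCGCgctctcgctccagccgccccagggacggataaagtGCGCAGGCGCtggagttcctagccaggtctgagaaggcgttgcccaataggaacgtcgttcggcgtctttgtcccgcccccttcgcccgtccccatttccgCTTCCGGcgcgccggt
Atp5h: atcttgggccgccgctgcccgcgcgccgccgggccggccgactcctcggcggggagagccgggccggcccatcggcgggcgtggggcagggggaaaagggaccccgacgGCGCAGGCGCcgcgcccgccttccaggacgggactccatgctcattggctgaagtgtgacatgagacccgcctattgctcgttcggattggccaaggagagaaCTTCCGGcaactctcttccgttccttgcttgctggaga
Cox7a1: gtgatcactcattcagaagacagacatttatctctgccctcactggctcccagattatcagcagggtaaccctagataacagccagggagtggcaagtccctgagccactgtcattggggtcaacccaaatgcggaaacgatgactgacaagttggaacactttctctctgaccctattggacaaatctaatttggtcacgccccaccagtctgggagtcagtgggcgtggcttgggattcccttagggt
The Cox6a1 window holds 2 NRF1 matches and 1 ETS match, the Atp5h window 1 of each, and the Ndufa8 window 1 NRF1 match. In the deposited data Ndufa8 was high in endothelial cells, Cox6a1 and Atp5h were abundant in all classes, and Cox7a1 was under 10 CPM in every class other than Schwann cells. Among the most abundant members, Uqcrh, Cox8a, Atp5e, Atp5h and Atp5l had an NRF1 or ETS match in the full window searched. Atp5b, Cox7c and Cox7a2l had neither. Of the low genes, Ndufaf1, Ndufaf5 and Sdhaf3 had a match, and Cox6b2, Cox7b2 and Cox8b, like Cox7a1, had neither. A link between motifs and expression was not tested.

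The age comparison asked which members differ between old and young cells of one class. For each class the UMIs of a library's cells were added up, and all genes were tested with edgeR's quasi-likelihood test; values are TMM-scaled CPM and adjusted p-values are Benjamini-Hochberg values over all genes tested in that class. Of the 96 members 88 were tested in all 4 main lineages. The 8 that were not are Ndufa4l2, Cox6b2, Cox4i2, Cox7a1, Cox6a2, Cox8b, Cox8c and Cox7b2. Across the 4 main lineages only 1 member passed in 1 lineage: Ndufa4l2 rose in old progenitors. In luminal cells 4 members fell, and no other class had a member that passed.

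In adipose progenitors, 93 members were tested and 1 passed, against 1.86% of all 13954 genes tested. Ndufa4l2 stood at 13.6, 6.32, 10.6 and 13.5 CPM in young replicates 1 to 4 and at 28.1, 28.4 and 86.8 CPM in old replicates 1 to 3. The old libraries all lay above the young ones, and old replicate 3 was the highest. The log2 fold change was 2.12 (SE 0.43, adjusted p = 0.0481 by edgeR). Leaving out young replicate 1 kept the call (2.23, adjusted p = 0.0498), and leaving out any one of the other 6 libraries ended it, with log2 fold changes of 1.37 (without old replicate 3) to 2.39 and adjusted p of 0.0697 to 0.127.

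The rise in Ndufa4l2 moved with the makeup of the progenitors. A cluster named committed preadipocytes, from markers such as Pparg and Icam1, held 755, 510 and 488 cells in the old libraries but 5, 10, 5 and 19 cells in the young ones. It had the highest Ndufa4l2 of the 12 progenitor clusters, at 64.0, 72.4 and 141 CPM in the old libraries. Interstitial progenitor clusters, which express Dpp4 and Pi16, stood at 0.823 to 1.56 CPM and the other clusters at 2.33 to 27.8 CPM. With the committed preadipocyte cluster left out, an alternative added after the data were seen, the log2 fold change was 0.41 (adjusted p = 0.760 by edgeR) and no member passed.

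The summed level of 7 pericyte markers in progenitors was 263 to 385 CPM in the young and 238 to 318 CPM in the old libraries. None of the markers was at 0, and the part of pericyte RNA in the result was not tested. Rgs5, the most pericyte-specific of them, was at 2.16 to 12.8 CPM in progenitors against 3774 to 8781 CPM in pericytes. Within interstitial, matrix-producing and regulatory progenitors Ndufa4l2 did not pass.

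**Figure D3:**
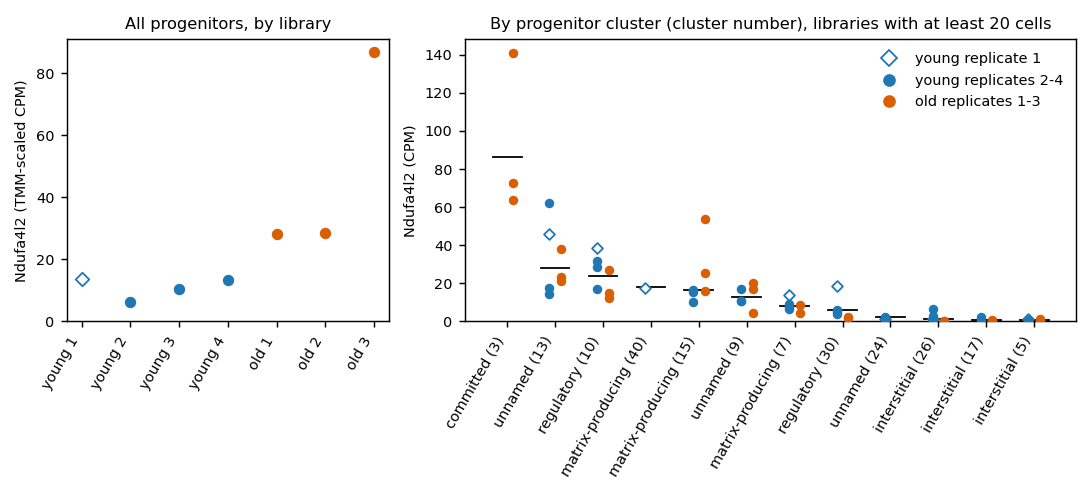
Left, Ndufa4l2 in all progenitors by library (TMM-scaled CPM); right, CPM by progenitor cluster, with the cluster number in brackets, where each point is a library with at least 20 cells of the cluster and the bar is the level over the whole cluster. The 3 old libraries lie above the 4 young ones on the left, and the committed preadipocyte cluster, at 64.0 to 141 CPM, has points from old libraries alone.

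Other progenitor members moved without passing in edgeR. Libraries of the 2 ages did not overlap for 14 of 93 members (9 higher and 5 lower in old), against 17.4% of all genes tested, so the members' share was no larger than that of other genes. The lowest p-values upward after Ndufa4l2 were those of the catalytic ATP synthase gene Atp5b and of Ndufv1. Atp5b stood at 259, 256, 288 and 283 CPM in the young and 350, 335 and 398 CPM in the old libraries (log2 fold change 0.41, SE 0.15, adjusted p = 0.205). Ndufv1 went from 55.2 ± 3.86 to 74.4 ± 15.0 CPM (adjusted p = 0.223).

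The lowest p-values downward were those of Cox7a1 and Cox7c. Cox7a1 stood at 5.93, 3.33, 2.28 and 1.80 CPM in the young and 0.956, 1.34 and 0.9004 CPM in the old libraries (log2 fold change -1.61, SE 0.47, adjusted p = 0.127). Cox7c, a common subunit of complex IV, went from 436 ± 22.2 to 323 ± 23.5 CPM (adjusted p = 0.181). DESeq2 called 4 members: Ndufa4l2 and Atp5b as higher and Cox7c and Cox7a1 as lower. Over all genes DESeq2 also called more in progenitors than edgeR did, and both counts are given at the end. The median log2 fold change over the 93 members was 0.04, against 0.00 over all genes, and without young replicate 1 the median log2 ratio of the group means was 0.10.

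Macrophages, the endocytic cells that clear debris in fat, showed no member that passed among 93 (edgeR; 0 at an unadjusted p under 0.05 and 0 by DESeq2), against 0.111% of all genes tested. Groups did not overlap for 2 members, against 6.19% of all genes, and the median log2 fold change was 0.10 against 0.02. Without young replicate 1 groups did not overlap for 9 members, all higher in old, and the median log2 ratio of the group means was 0.19. The share over all genes was not counted without that library. The lowest p-values upward belonged to Ndufv1, at 46.0, 31.6, 33.6 and 32.9 CPM in the young and 45.9, 36.0 and 54.3 CPM in the old libraries, and to Uqcrc1, at 71.3 ± 15.5 and 93.7 ± 42.5 CPM. The lowest downward belonged to Cox4i2, at 1.49 ± 0.974 and 0.253 ± 0.333 CPM, and Atp5k, at 190 ± 38.9 and 155 ± 30.5 CPM. All 4 overlapped between ages.

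Endothelial cells likewise had no member that passed among 91 (edgeR; 0 at an unadjusted p under 0.05, 0 by DESeq2), against 0.139% of all genes, and no member whose groups did not overlap, against 9.51%. Without young replicate 1 groups did not overlap for 2 members higher and 1 lower in old, with the share over all genes not counted. Ndufaf5, a complex I assembly factor, and Ndufa12 had the lowest p-values upward (adjusted p = 0.736 and 0.755). Cox7a2l, the supercomplex factor, and Uqcrh had the lowest downward, at 336 ± 53.6 against 248 ± 53.6 CPM and 483 ± 75.8 against 359 ± 69.3 CPM (adjusted p = 0.552 and 0.568). The median log2 fold change was 0.01 over the members and 0.00 over all genes. The endothelial cells fell into different clusters: of the 3, the one led by Gpihbp1 and Aqp1 held 738, 666 and 294 cells in the old libraries but 27 of the 1123 in young replicate 1, most of which (797) were in another cluster that held 14 to 84 cells in each other library.

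T cells leaned lower in old libraries without any member passing. Of 88 members 78 had a lower estimate in old cells, with a median log2 fold change of -0.26 against 0.01 over all genes. None passed (edgeR; 0 by DESeq2), against 0.211% of all genes. An unadjusted p under 0.05 was found for 5 of the 88 members and for 781 of all 9936 genes tested. Groups did not overlap for 15 members, all lower in old, against 8.14% of all genes in either direction. Without young replicate 1, which held only 69 T cells and the highest value for 39 of the 88 members, 16 members did not overlap and the median log2 ratio of the group means was -0.23.

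Atp5k, the e subunit of complex V, had the lowest p-value in T cells. It stood at 214, 156, 199 and 161 CPM in the young and 108, 118 and 99.8 CPM in the old libraries, without overlap (log2 fold change -0.74, SE 0.22, adjusted p = 0.301). Ndufc1 of complex I stood at 125, 67.9, 82.8 and 79.8 CPM in the young and 54.3, 58.6 and 60.002 CPM in the old libraries, also without overlap (adjusted p = 0.520). The lowest p-values upward were those of Atp5s and Ndufaf1, both under 5 CPM (adjusted p = 0.932 and 0.934).

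The T cells also differed in makeup. A cluster with high Ccr7, a receptor of naive T cells, was 77.5% and 68.6% of T cells in young replicates 3 and 4. It was 17.6%, 6.05% and 33.0% in the old libraries. Young replicates 1 and 2 held 11 and 88 such cells, counted with doublets, beside 69 and 278 T cells without doublets. Their parts lay within the range of the old libraries, so the ages overlapped. Member shares were lower in old than in young libraries within that cluster (1.04% to 1.19% against 1.201% to 1.33%) and within the largest cluster (1.29% to 1.57% against 1.63% to 1.72%). They overlapped in a cluster with Icos and Ctla4 among its leading genes (1.26% to 1.51% against 1.503% to 1.78%). These shares leave out young replicate 1, which had fewer than 20 cells in each of the 3 clusters.

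**Figure D4:**
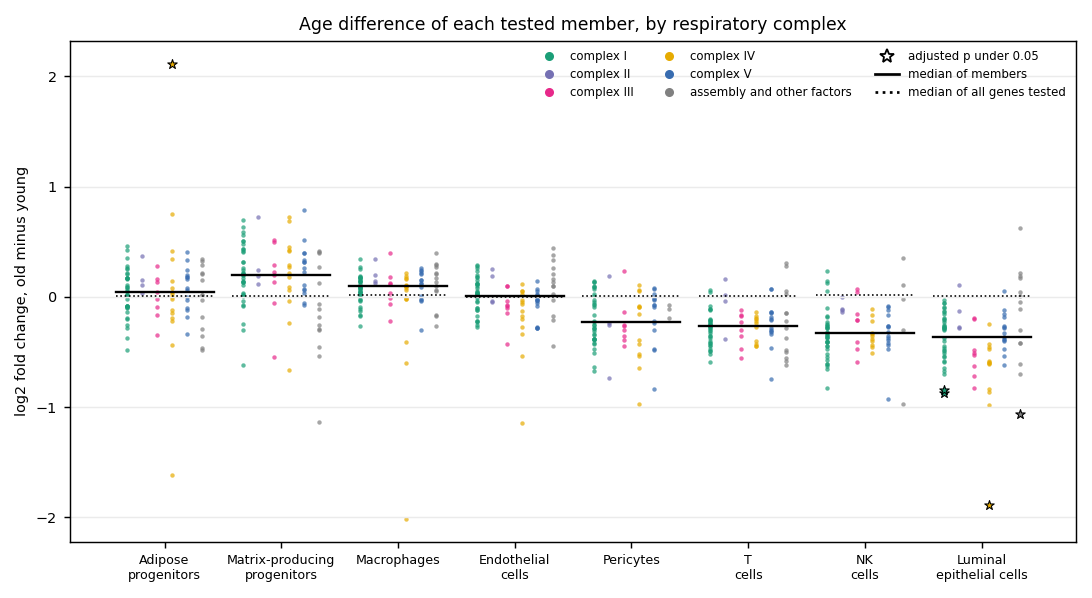
log2 fold change, old minus young, of each tested member (points, coloured by complex) in 8 cell classes; stars passed at an adjusted p under 0.05, the solid bar is the median of the members and the dotted bar that of all genes tested. The members' medians are -0.36 in luminal cells, -0.32 in NK cells and -0.26 in T cells, 0.20 in matrix-producing progenitors and near the dotted bar in endothelial cells and in progenitors as a whole.

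The age effect of a member in progenitors was set against that in another lineage in a joint edgeR fit with the library as a block. No member passed. The counts at an unadjusted p under 0.05 were 5 of 94 against macrophages (0.22% of all genes passed), 5 of 93 against endothelial cells (1.21%) and 15 of 92 against T cells (0.704%). The bracketed shares are at the adjusted threshold, and no share of all genes at the unadjusted p was counted. Ndufa4l2 came nearest, with a difference of 2.43 log2 units against macrophages (SE 0.49, adjusted p = 0.0890).

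Luminal epithelial cells were the class with most members that passed. Of 90 members tested 82 had a lower estimate in old cells, 4 fell and none rose (edgeR), against 7.4% of all genes tested in either direction. The members' share that passed was thus smaller than that of all genes. The median log2 fold change was -0.36 against 0.01 over all genes. Groups did not overlap for 35 members, all lower in old, against 21.9% of all genes. The summed share was 2.95%, 3.07%, 2.58% and 2.78% in the young and 1.82%, 2.20% and 2.08% in the old libraries, without overlap with or without young replicate 1. Complexes I, III, IV and V each lay lower in every old library, and complex II overlapped.

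The 4 members that fell belong to 3 complexes. Cox6b2 (chr7:4751792-4753094) stood at 13.3, 15.4, 13.7 and 9.26 CPM in the young and 3.79, 4.38 and 2.24 CPM in the old libraries (log2 fold change -1.88, SE 0.33, adjusted p = 0.0156). Sdhaf4 (chr1:23995939-24005656), which helps assemble the flavoprotein of complex II, stood at 58.6, 69.6, 40.1 and 65.1 CPM and 29.8, 32.3 and 21.5 CPM (-1.06, SE 0.24, adjusted p = 0.0344). Both had every old library below every young one.

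Ndufa7 (chr17:33824572-33838317), the member that marked luminal cells above, stood at 773, 787, 811 and 904 CPM in the young and 372, 496 and 473 CPM in the old libraries (-0.87, SE 0.21, adjusted p = 0.0387). Ndufc1 (chr3:51404677-51408988) stood at 229, 304, 227 and 280 CPM and 121, 154 and 158 CPM (-0.85, SE 0.21, adjusted p = 0.0426). Again the groups did not overlap. All 4 calls were lost without old replicate 1 (adjusted p of 0.0891 to 0.184). The call of Cox6b2 held without each other library. That of Sdhaf4 was lost without young replicate 2 or 4 or old replicate 3, that of Ndufc1 without young replicate 2, 3 or 4 or old replicate 3, and that of Ndufa7 without any one young library. DESeq2 called 17 members, all lower in old, with Cox8a (DESeq2 log2 fold change -0.85), Uqcr11 (-0.82) and Cox5a (-0.83) among them. Over all genes DESeq2 also called more in luminal cells than edgeR did, and both counts are given at the end.

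Luminal makeup moved with these values. One cluster had Krt18, Krt8 and Prlr, the last a gene of hormone-sensing luminal cells, among its leading genes. Krt18 was also a leading gene of the cluster with milk protein genes described below. The cluster with Prlr held 204, 52, 28 and 148 cells in the young libraries but 6, 10 and 0 in the old. Its summed member share was 3.27%, 3.19%, 2.82% and 2.90% in the young libraries. Clusters 38 and 47 also had Prlr, Krt18 and Krt8 among their leading genes. Counted with doublets, cluster 38 held 162, 21, 27 and 55 young cells and 14, 20 and 18 old cells. Cluster 47 held 71, 5, 15 and 30 young cells and 10, 21 and 8 old cells. Another cluster, led by the milk protein genes Csn3 and Csn1s1 and by Ltf, held 24.4%, 10.6%, 15.9% and 7.44% of young luminal cells and 84.9%, 53.8% and 94.0% of old ones. Its share was 1.69%, 1.78% and 2.07% in the old libraries and 2.14% in young replicate 1, the only young library with 20 such cells.

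Of the 8 luminal markers none was at 0, and their summed level was 14581 to 20576 CPM in the young and 7691 to 14073 CPM in the old libraries; Prlr was at 2577 to 3942 CPM and 136 to 1322 CPM. The same genes differed between cluster 27 (Prlr) and cluster 28 (Csn3): Ndufa7 was at 956 and 374 CPM and Cox6b2 at 13.9 and 3.27 CPM. Age and cluster cannot be told apart here, since no luminal cluster had 20 cells in at least 2 libraries of each age.

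**Figure D5:**
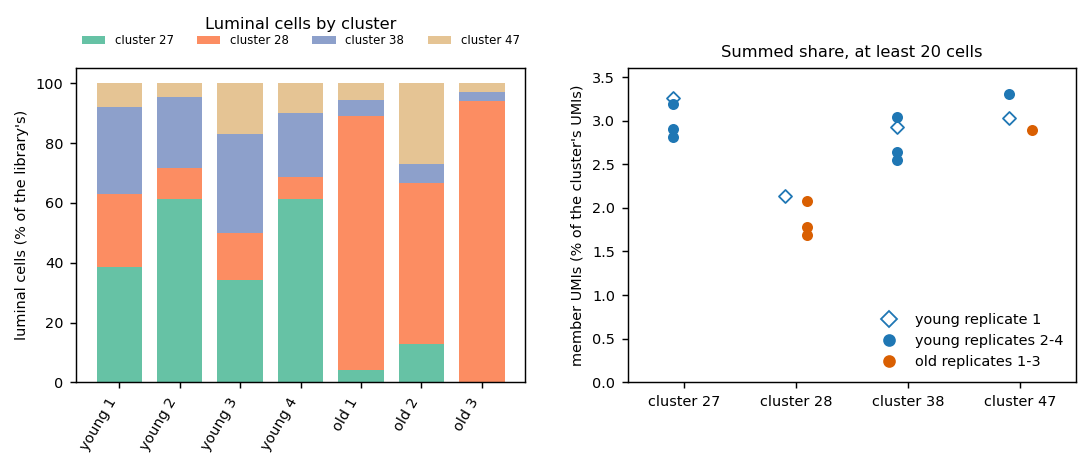
Left, luminal cells of each library by cluster (percent of the library's luminal cells); right, the summed share of the 96 genes in each cluster, 1 point per library with at least 20 cells. Cluster 27 (Prlr) makes up 34.1% to 61.2% of young luminal cells, cluster 28 (Csn3) 53.8% to 94.0% of old ones, and cluster 28 has the lowest shares, between 1.69% and 2.14%.

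The remaining classes gave no member that passed in edgeR, and the members named in them were chosen after their values were seen. NK cells leaned like T cells: 71 of 79 members had lower estimates in old cells, the median log2 fold change was -0.32 against 0.02, and groups did not overlap for 23 members, all lower in old, against 7.29% of all genes. None passed (11 at an unadjusted p under 0.05, 0 by DESeq2), and neither did any other gene (0%). Over all genes tested, 395 of 6183 lay under that unadjusted p. Atp5k again had the lowest p-value, at 337, 267, 306 and 299 CPM in the young and 202, 125 and 153 CPM in the old libraries (adjusted p = 0.705). The summed share was 2.20%, 1.94%, 1.95% and 2.02% in the young and 1.63%, 1.45% and 1.83% in the old libraries, without overlap with or without young replicate 1. Immediate early genes moved the other way in NK cells (0.522% to 0.887% against 1.03% to 1.21%), and their part in the result was not tested.

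In pericytes 62 of 79 members had lower estimates in old cells (median log2 fold change -0.23 against 0.00), none passed (3 at an unadjusted p under 0.05, 0 by DESeq2), and neither did any other gene (0%). Over all genes tested, 360 of 4806 lay under that unadjusted p. Without young replicate 1 the members' median log2 ratio of the group means was -0.13, against -0.19 with it. The mitochondrially encoded share was higher in every old pericyte library (6.49% to 7.06% against 5.13% to 6.35%), as it was in interstitial progenitors (2.66% to 3.40% against 1.66% to 2.37%). The nuclear share overlapped, so that nuclear members per mitochondrially encoded UMI were lower in every old library (0.200 to 0.291 against 0.317 to 0.426). Their 2 marked members, Ndufa4l2 and Cox4i2, overlapped between ages, as their values above show.

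Matrix-producing progenitors, which express Postn and Adam12, leaned the other way. Of 91 members 69 had higher estimates in old cells, the median log2 fold change was 0.20 against 0.00, and groups did not overlap for 25 (21 higher and 4 lower in old), against 17.4% of all genes. Without young replicate 1 groups did not overlap for 36 members higher and 4 lower in old, with the share over all genes not counted. None passed, against 0.177% of all genes. An unadjusted p under 0.05 was found for 21 of the 91 members and for 1782 of all 11325 genes tested. DESeq2 called 4: Ndufv1, Atp5b and Atp5g1 as higher and Ndufa6 as lower. Its count over all genes in this class is not given here, so these calls have no base of comparison. Ndufv1 stood at 62.3, 53.5, 51.7 and 58.1 CPM in the young and 90.9, 86.2 and 98.1 CPM in the old libraries (log2 fold change 0.69, SE 0.16, adjusted p = 0.0919 by edgeR). Atp5g1 stood at 208, 139, 182 and 131 CPM and 312, 241 and 302 CPM (adjusted p = 0.139). Groups did not overlap for either gene. The summed share was 1.58% in young replicate 1, 1.18% to 1.25% in the other young libraries and 1.35% to 1.48% in the old ones. In young replicate 1, 230 of the 317 matrix-producing progenitors belonged to a cluster led by Inmt and Crabp1 that had 0 to 7 cells in each other library.

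Interstitial progenitors had no member that passed of 90 (2 at an unadjusted p under 0.05; 1 by DESeq2, Cox7a1, lower in old), against 0.836% of all genes. Over all genes tested, 1193 of 11360 lay under that unadjusted p. Cox7a1 stood there at 8.31, 6.84, 6.25 and 4.23 CPM in the young and 2.03, 2.54 and 0.717 CPM in the old libraries (log2 fold change -1.64, SE 0.38, adjusted p = 0.0927 by edgeR). Of the 13 mitochondrially encoded genes, 13 had higher estimates in old interstitial progenitors, 10 at an unadjusted p under 0.05, and none passed. Regulatory progenitors had 0 of 90 (0 at an unadjusted p under 0.05, 0 by DESeq2), against 0.294%.

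B cells had 0 of 82 (2 at an unadjusted p under 0.05), against 1% of all genes, and basal epithelial cells 0 of 85 (7), against 0.464%. Dendritic cells had 0 of 88 (2), against 0.0326%, and monocytes 0 of 78 (0), against 0%. Over all genes tested, an unadjusted p under 0.05 was found for 692 of 7601, 780 of 7539, 268 of 9191 and 341 of 5513, in that order. DESeq2 called no member in these 4 classes. The medians over the members were 0.07 in B cells, -0.18 in basal cells, -0.04 in dendritic cells and 0.17 in monocytes. Fewer counts entered these tests than those of the main lineages.

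Other genes of mitochondrial and energy metabolism were read from the same fits. In the 4 main lineages none of the listed genes passed in either direction, among assembly factors and electron carriers, mitochondrial ribosomal proteins, the tricarboxylic acid cycle, glycolysis, regulators of mitochondrial biogenesis and the 13 mitochondrially encoded genes. The mitochondrial ribosomal genes leaned like the members in T cells, with 29 of 32 lower in old and a median of -0.28, and in NK cells, with 28 of 31 lower and a median of -0.40. Genes of the tricarboxylic acid cycle had 16 of 18 higher estimates in old progenitors, with a median of 0.21, and 5 of 18 in luminal cells. Glycolytic genes had 13 of 15 higher estimates in old macrophages, with a median of 0.52. Their summed share there was 0.156% to 0.214% in the young and 0.197%, 0.209% and 0.326% in the old libraries. The ages thus overlapped, and old replicate 3 was the highest.

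In luminal cells Cox17, a copper chaperone of complex IV assembly, and Usmg5, an ATP synthase subunit with a symbol outside the rule, fell (log2 fold change -0.82 and -0.92, adjusted p = 0.0366 and 0.0380). Pfkp, a phosphofructokinase of glycolysis, rose (1.21, adjusted p = 0.0337), and so did Cidea, a lipid-droplet protein of brown fat that the mammary gland also makes, from 0.587 ± 0.420 to 32.2 ± 26.1 CPM (adjusted p = 0.00566). No gene of the mitochondrial ribosome, tricarboxylic acid cycle, biogenesis or mitochondrially encoded lists passed there.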

How the data were processed

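Whole-number UMI counts per gene and cell barcode of 7 libraries were used as deposited; per the submitters' processing notes the authors made them with Cell Ranger 4.0.0 on mm10. How reads shared between near-identical genes were treated is not given in the sources used here. Barcodes were kept from 500 UMIs and 300 detected genes upward unless mitochondrial UMIs exceeded 15%; doublets were called from simulated pairs at a rate of 0.8% per 1000 barcodes and removed. Cells were clustered with scanpy 1.11.5 (2000 variable genes, 30 principal components, 15 neighbours, Leiden resolution 2, leidenalg 0.10.2) without the 96 genes and mitochondrially encoded genes, and 47 of 61 clusters were named from markers; the others (8.03% of cells) were left out of classes. Classes needed 20 cells in a library. Levels between classes are a description, in CPM without further scaling.

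Old and young libraries were compared on counts summed per class and library with edgeR 4.0.16 in R 4.3.3 (quasi-likelihood test, expression filter, TMM scaling), with p-values adjusted over all genes by Benjamini-Hochberg and a threshold of 0.05. On simulated data 94% to 98% of genes changed by 2 log2 units, and 21% to 46% of those changed by 1, were recovered in the 4 main lineages. The simulation gave every gene the same dispersion and, apart from the changed genes, every library the same mean profile. Differences between genes in spread and between libraries in makeup were thus left out, and recovery in the real data can be lower. Replicate numbers did not pair young and old libraries. DESeq2 1.42.0, RLE scaling, no expression filter, a replicate block, a 5% mitochondrial ceiling, kept doublets, thinning to equal UMIs per cell and leaving out each library were alternatives. Named genes were every member that passed, in each main lineage the 2 members with the lowest p in each direction that did not pass, the 10 most abundant members, isoform sets and core subunits; others are marked as chosen after their values were seen. The members and lists were chosen with earlier results of these data known. For shares of cells the 95% interval is exact (Clopper-Pearson); where no UMI was seen, up to 3 are allowed. Promoter sequences are from RefSeq (GRCm38.p6) and gene positions from GENCODE M21.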

Additional observations from a re-analysis of the deposited data

Results flagged for a closer look

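In 6 of the 53 sets of 4 young values examined, 1 value lay far from the other 3 by Dixon's gap ratio, and in all 6 it was that of young replicate 1. Chance alone gives about 1 such set in 20. In T cells its complex I subunits took 0.544% of UMIs against 0.376% to 0.389% in the other young libraries, its complex II subunits 0.0323% against 0.0213% to 0.0218%, and its complex III subunits 0.195% against 0.149% to 0.155%. In progenitors its complex III subunits took 0.154% against 0.131% to 0.134%, and its complex IV subunits 0.399% against 0.313% to 0.324%. In macrophages it held Ndufv1 at 46.0 CPM against 31.6 to 33.6 CPM.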

How the results depend on the processing

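In progenitors the 1 member called became 4 with DESeq2 and 0 with doublets kept, with cells thinned to equal UMIs, or without the committed preadipocyte cluster (added after the data were seen), and 0 to 1 when each library was left out. With the replicate block it was 0, although the numbers do not pair the samples (correlations of same-numbered libraries of -0.12 to 0.24 over the 4 main lineages); the block called no member elsewhere. Ndufa4l2 kept its direction throughout. The 4 calls outside the main lineages became 17 with DESeq2 and 0 to 6 when each library was left out, and the 0 calls in progenitor subclasses became 5 with DESeq2, all alternatives added after the data were seen. Uqcrc1 in macrophages ranged from -0.039, reversed without old replicate 3, to 0.59 when libraries were left out. Of 264 values of named genes, 263 kept their direction. The call was lost in 25 values, all of Ndufa4l2 in progenitors or of the 4 luminal members. Only these had a call to lose, so the 264 values are not the base for the 25. Without mitochondrially encoded and ribosomal protein genes in the total, the summed shares became 1.59% in progenitors, 1.66% in macrophages, 1.87% in endothelial cells and 2.24% in T cells, and the T cell difference, old minus young, moved from -0.241 to -0.476 percentage points. Counts over all genes depended more on the method: 259 in progenitors (DESeq2 958, block 87, 30 to 453 by library left out), 13 in macrophages (DESeq2 123, no filter 39, block 6, 0 to 38), 16 in endothelial cells (DESeq2 224, no filter 175, block 0, 3 to 54), 21 in T cells (DESeq2 91, no filter 263, 4 to 54) and 852 in luminal cells (DESeq2 1606, 41 to 1456). Small classes rest on fewer counts, and differences of 1 log2 unit would often be missed.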
